A study of Homo sapiens with 5 samples.

Results

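The ETS transcription factor ERG is overexpressed in VCaP, an established cell line from a human prostate cancer, because its gene is fused to the androgen-regulated TMPRSS2 promoter. The data described here are the binding sites of ERG, and of the mutant p53 that the same cells express, at 10 genes widely used as a signature of ERG fusion-positive prostate cancer, namely PLAU, PLAT, PLA1A, CRISP3, CXCR4, CACNA1D, TDRD1, EZH2, VIM and ARHGDIB. Sites were measured in untreated VCaP cells by chromatin immunoprecipitation followed by sequencing (ChIP-seq), with an ERG antibody (ab92513) in 2 samples and the p53 antibody DO-1 (sc-126) in 2 samples. All 4 samples came from this 1 line, so ERG-negative cells were not compared. The fifth sample of the series is input chromatin, which was not analysed here.

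The members were chosen by position. A peak was counted for a gene when it overlapped the hg19 span of that gene, given to the nearest 1 kb, or the 50 kb on either side. The 10 widened spans measured 1.58 Mb in all, from 105 kb for CXCR4 to 418 kb for CACNA1D. They held 20 of the 14337 peaks of ERG replicate 1 and 7 of the 11237 peaks of ERG replicate 2. They held 0 of the 227 peaks of p53 replicate 1 and 0 of the 138 peaks of p53 replicate 2. A list gives the edges of each peak and no score, summit or read count, so a peak is described by its position and width. Where a list has no peak, none was called, which does not show that the factor is absent.

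ETS proteins contact DNA through a winged helix-turn-helix domain that reads a GGAA core, and ERG is best known for its part in endothelial and blood cell development. In prostate cancer cells carrying the fusion, ERG has been described as both an activator and a repressor, acting at promoters and at distant enhancers. The 10 genes are known mostly as transcripts whose level follows ERG in tumours or cell lines. Whether ERG sits near each gene is the question put to these lists.

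Of the 10 loci, 5 held an ERG region found in both replicates (TDRD1, CACNA1D, PLA1A, PLAT and ARHGDIB), 2 held ERG replicate 1 peaks alone (PLAU and EZH2) and 3 held no ERG peak (VIM, CRISP3 and CXCR4). Overlapping peaks of the replicates were merged into 20 ERG regions, of which 7 were shared by the replicates. ARHGDIB held 3 of the shared regions, and the other 4 genes held 1 each. The shared region of TDRD1 and 1 of the 3 at ARHGDIB lay at the 5′ end of the gene. All 7 replicate 2 peaks met a replicate 1 peak, and the remaining 13 regions were called in replicate 1 alone.

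**Figure D1:**
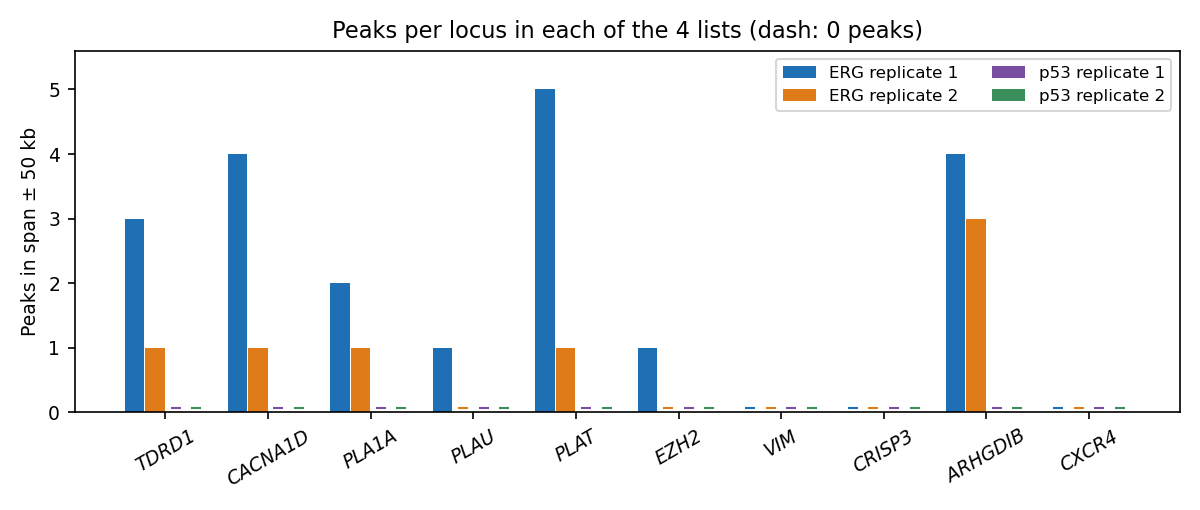
Number of peaks (y axis) in each gene span widened by 50 kb on both sides, for the 4 peak lists (colours) at the 10 loci (x axis), with a dash for 0. ERG replicate 1 has the most peaks at PLAT with 5, ERG replicate 2 has the most at ARHGDIB with 3, and both p53 lists are at 0 throughout.

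These counts are read against the whole genome as covered by the lists. Of 30937 consecutive windows of 100 kb, 21.8% held a shared ERG region, 29.9% an ERG replicate 1 peak and 0.889% a p53 peak of either replicate. Because the loci are longer than 100 kb, windows of the length of each locus were also counted. Averaged over the 10 lengths, 28.6% of such windows held a shared ERG region, beside 5 of the 10 loci, and 37.7% held an ERG replicate 1 peak, beside 7 of the 10. The windows include stretches without genes, and no test was made of the difference.

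The 20 ERG regions were placed by the direction of transcription. The gene spans held 7 regions, of which 3 were shared. The 5′ flanks held 4, of which 1 was shared, and the 3′ flanks held 9, of which 3 were shared. The gene spans made up 0.581 Mb of the 1.581 Mb searched, and the flanks measured 50 kb on each side of every gene. All ERG regions were not placed in this way, so the counts are not read as a preference for any place. Flanks of 50 kb also reach other genes, which are named below by their order along the chromosome, and a region there is not shown to act on the signature gene. Exons, introns and untranslated regions are not given, since no hg19 annotation was used here.

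**Figure D2:**
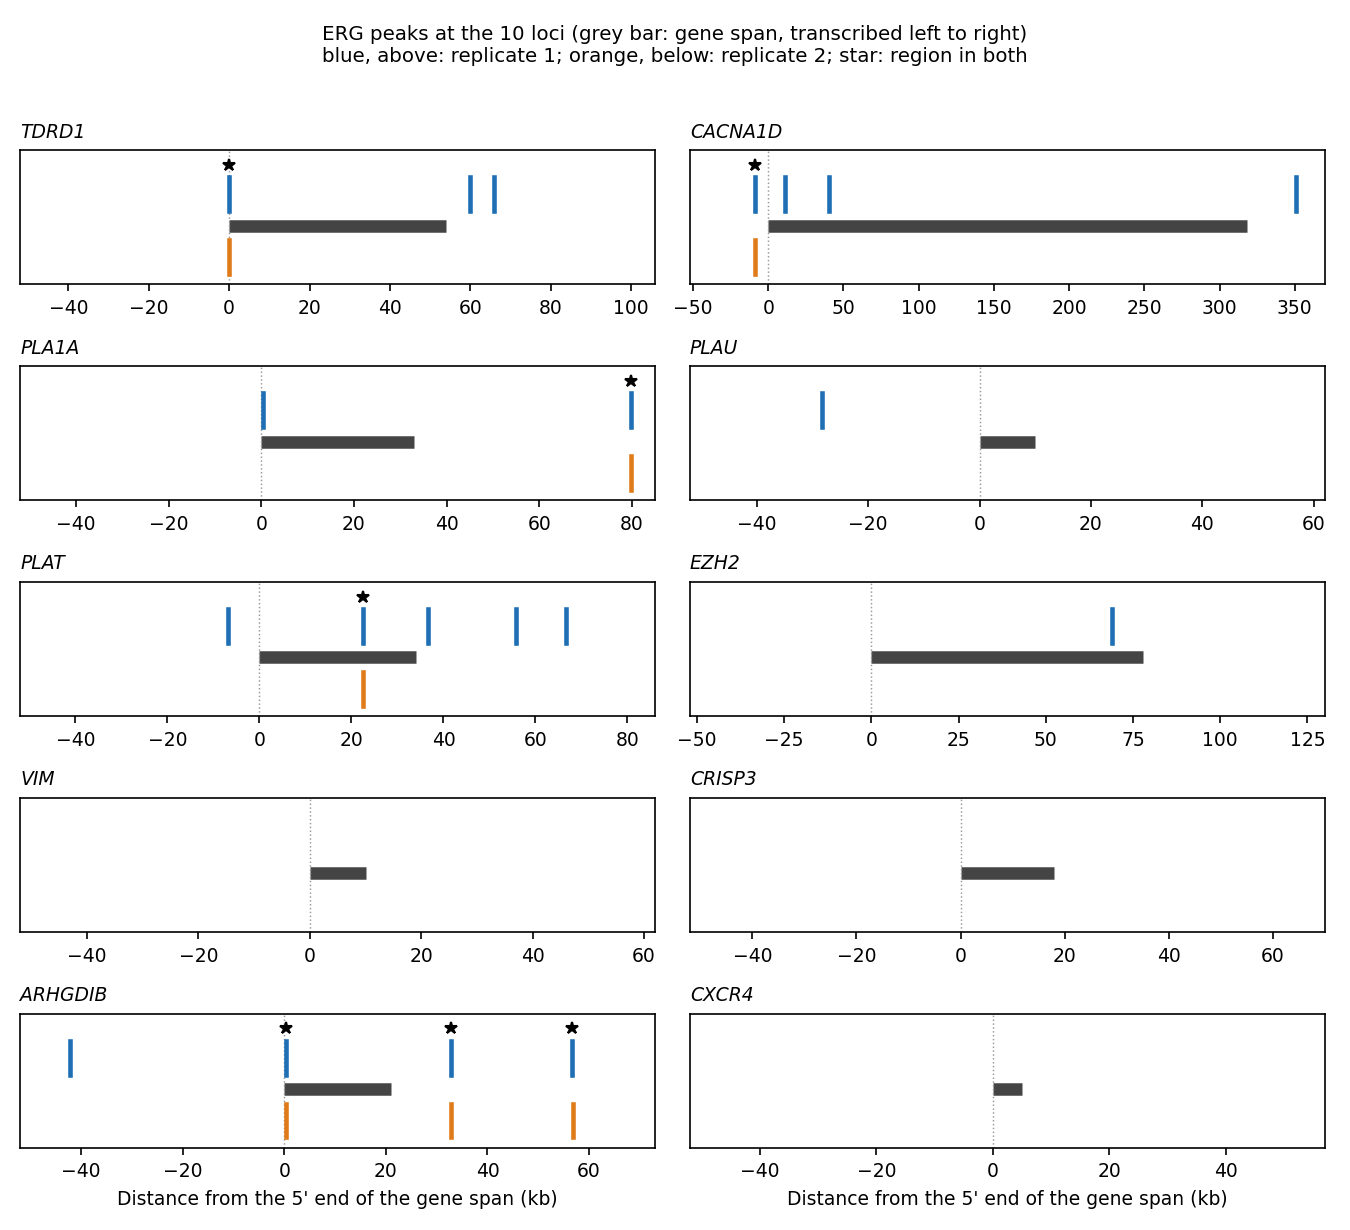
Position of each ERG peak relative to the 5′ end of the gene span (x axis, kb, with its own scale in each panel and transcription running to the right) at the 10 loci. Blue ticks above the grey gene bar are replicate 1 peaks, orange ticks below it are replicate 2 peaks, and stars mark the 7 regions in both. These lie at 0.0 kb for TDRD1 and at 0.3, 32.8 and 56.6 kb for ARHGDIB. The others lie at -8.6 kb for CACNA1D, 22.5 kb for PLAT and 79.8 kb for PLA1A.

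The plasminogen activators came first among the roles examined. PLAU encodes urokinase and PLAT the tissue-type activator, secreted serine proteases that turn plasminogen into plasmin and thereby open the extracellular matrix to invading cells. PLAU (chromosome 10, 75668 to 75678 kb) had a single ERG peak in replicate 1, at 75639475 to 75639713, and no peak in replicate 2. This peak was 239 bp wide, and only 10.8% of the replicate 1 list was narrower. It lay 28.3 kb upstream of the gene, on the side of CAMK2G. The nearest region in both replicates was 80.7 kb past the 3′ end of PLAU, at 75758733 to 75759123, on the side of VCL.

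PLAT (chromosome 8, 42032 to 42066 kb) had 5 ERG peaks in replicate 1 and 1 in replicate 2, which made it the locus with the most replicate 1 peaks. The single shared region lay inside the gene span, 22.5 kb downstream of the 5′ end. It comprised a replicate 1 peak at 42043120 to 42043542 (423 bp) and a replicate 2 peak at 42043169 to 42043499 (331 bp), whose midpoints were 3 bp apart. The other 4 replicate 1 peaks were narrow. The peak 6.8 kb upstream of the gene, at 42072847 to 42073070, measured 224 bp, and those 36.6, 55.7 and 66.7 kb downstream of the 5′ end measured 227 bp, 257 bp and 285 bp. The last 3 lay past the 3′ end of PLAT, on the side of AP3M2 and KAT6A. Between 4.06% and 29.1% of the replicate 1 list was narrower than these 4 peaks, whereas 65.5% was narrower than the peak that recurred. Among windows of the same 134 kb, 26.9% held at least 1 shared ERG region and 1.06% held 5 or more replicate 1 peaks. With each locus taken at its own length and replicate 1 count, 1.06% was the lowest share among the 7 loci with ERG peaks. The others were 2.01% (ARHGDIB), 8.07% (TDRD1), 15.1% (PLA1A), 19.8% (CACNA1D), 31.9% (PLAU) and 42.5% (EZH2).

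Of the other secreted or membrane proteins, PLA1A encodes a secreted phospholipase that acts on phosphatidylserine. PLA1A (chromosome 3, 119316 to 119349 kb) had 2 ERG peaks in replicate 1 and 1 in replicate 2. A replicate 1 peak of 341 bp, at 119316414 to 119316754, lay 0.4 kb from the 5′ end of the span, within the 1 kb to which the span is known, and was absent from the replicate 2 list. Its width was close to the middle of that list, of which 47% was narrower. The shared region lay 79.8 kb downstream of the 5′ end and 46.8 kb past the 3′ end, near the limit of the locus, on the side of POPDC2 and COX17. Its peaks were among the wider ones of both lists, with 669 bp at 119395810 to 119396478 in replicate 1 and 589 bp at 119395829 to 119396417 in replicate 2. PLA1A therefore counted as a locus with a shared region only through this distant site.

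CACNA1D encodes the pore-forming subunit of an L-type calcium channel and has the longest span of the 10 genes (chromosome 3, 53529 to 53847 kb). It had 4 ERG peaks in replicate 1 and 1 in replicate 2. The shared region lay upstream, 8.6 kb before the 5′ end, with 320 bp at 53520037 to 53520356 in replicate 1 and 373 bp at 53520062 to 53520434 in replicate 2. The midpoints of these peaks were 51.5 bp apart. Another 2 replicate 1 peaks lay within the span, at 53540351 to 53540634 (284 bp) and 53569182 to 53569612 (431 bp), which is 11.4 kb and 40.2 kb downstream of the 5′ end. The remaining replicate 1 peak lay in the 3′ flank at 53879657 to 53879946 (290 bp), on the side of CHDH. No ERG peak was called in the rest of the 318 kb span. Among windows of the same 418 kb, 51% held at least 1 shared ERG region, the highest share for any of the 10 lengths.

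CRISP3 encodes a cysteine-rich secretory protein of the male reproductive tract, and CXCR4 the receptor of the chemokine CXCL12. Neither locus held a peak in any list. CRISP3 (chromosome 6, 49695 to 49713 kb) lay far from all ERG sites. Its nearest peak in replicate 1 was 2215 kb away and its nearest in replicate 2 was 2491 kb away, the largest distances among the 10 genes. At CXCR4 (chromosome 2, 136871 to 136876 kb) a shared ERG region lay 93.4 kb past the 3′ end, outside the widened span. It comprised a replicate 1 peak at 136777089 to 136777580 (492 bp) and a replicate 2 peak at 136777406 to 136777618 (213 bp). Within 100 kb of CXCR4 both replicates had 2 peaks.

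TDRD1 and EZH2 were examined as the genes of germline and chromatin function. TDRD1 encodes a Tudor domain protein of the piRNA pathway, which is normally active in germ cells and is expressed in fusion-positive prostate tumours. TDRD1 (chromosome 10, 115939 to 115993 kb) had 3 ERG peaks in replicate 1 and 1 in replicate 2. The shared region spanned the 5′ end of the gene, with 314 bp at 115938783 to 115939096 in replicate 1 and 476 bp at 115938777 to 115939252 in replicate 2. The replicate 1 peak lay wholly inside the replicate 2 peak. It ranked low by width in its own list, of which 38.9% was narrower, and the replicate 2 peak ranked high, with 82.5% narrower. The other replicate 1 peaks were wider, with 571 bp at 115998935 to 115999505 and 467 bp at 116005000 to 116005466, 59.9 kb and 66.0 kb downstream of the 5′ end on the side of VWA2. Neither of them was called in replicate 2, although 85% and 73.3% of the replicate 1 list was narrower.

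The promoters of TDRD1 and PLA1A are shown because an ERG peak lay at the 5′ end of both genes, in both replicates at TDRD1 and in replicate 1 alone at PLA1A. The TDRD1 promoter was set by the rule of a shared region within 2 kb of the 5′ end, and PLA1A was added after its peak had been seen. The sequences are the 250 bases before the first listed start site in RefSeq (GRCh38.p14), chr10:114179037-114179286 and chr3:119597635-119597884, both on the plus strand. They were found by gene symbol, not by converting the hg19 peaks, and 53.4 kb and 31.9 kb from these start sites to the 3′ end of the gene compare with hg19 spans of 54 kb and 33 kb. Capitals mark the ETS core, GGAA on the strand shown or TTCC for the other strand.
TDRD1: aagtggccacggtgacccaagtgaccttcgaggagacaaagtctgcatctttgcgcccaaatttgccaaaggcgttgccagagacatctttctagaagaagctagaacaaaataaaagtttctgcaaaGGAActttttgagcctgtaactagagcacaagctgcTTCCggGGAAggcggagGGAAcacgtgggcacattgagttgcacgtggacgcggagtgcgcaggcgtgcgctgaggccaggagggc
PLA1A: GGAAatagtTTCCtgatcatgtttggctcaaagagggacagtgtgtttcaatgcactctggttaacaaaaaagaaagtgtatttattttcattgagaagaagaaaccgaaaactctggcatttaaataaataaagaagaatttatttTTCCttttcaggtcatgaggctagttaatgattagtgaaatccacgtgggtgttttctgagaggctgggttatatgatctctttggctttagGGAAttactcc

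The TDRD1 promoter held 4 cores, including TTCCGG, the reverse complement of the longer ETS motif CCGGAA. The PLA1A promoter held 4 cores and lacked the longer motif. At least 1 GGAA core on either strand was in 92.7% of the 35116 RefSeq promoters of this length, and 34.3% held 4 or more. The longer CCGGAA, in which the core is also counted, was in 14.5% of the promoters. The tandem GGAAGGAA, in which the core is counted again, was in 3.06% and in neither of the sequences shown. Of the 10 genes, 9 had an entry, and TDRD1 was the gene with the longer motif. Cores were also present where ERG peaks were not, with 4 in the VIM promoter and 4 in the outermost CXCR4 promoter. The CACNA1D promoter, whose ERG region lay 8.6 kb upstream, held 0. For ARHGDIB the listed start sites lie 6.9 to 9.1 kb from the 3′ end of a gene that spans 21 kb, so none of them is the start at which the ERG peak lay, and no ARHGDIB promoter is shown.

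EZH2 encodes the methyltransferase of Polycomb repressive complex PRC2, which places the repressive mark on lysine of histone H3. EZH2 (chromosome 7, 148504 to 148582 kb) had a single ERG peak in replicate 1, at 148512737 to 148512962, and no peak in replicate 2. The peak was 226 bp wide, with 4.97% of the replicate 1 list narrower, and lay inside the span, 69.0 kb downstream of the 5′ end and so nearer to the 3′ end. The region in both replicates nearest to the span was 107 kb past the 3′ end, at 148396235 to 148396888, beyond the 50 kb flank.

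VIM and ARHGDIB complete the list with cytoskeletal and signalling functions. VIM encodes vimentin, the intermediate filament of mesenchymal cells that is used as a marker of epithelial-mesenchymal transition. VIM (chromosome 10, 17270 to 17280 kb) had no peak in any list. Its nearest ERG region was in both replicates, at 17487492 to 17487897, 207 kb past the 3′ end of the gene on the side of ST8SIA6.

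ARHGDIB encodes a GDP dissociation inhibitor, which holds small GTPases in their inactive form in the cytosol and is abundant in blood cells. ARHGDIB (chromosome 12, 15094 to 15115 kb) had 4 ERG peaks in replicate 1 and 3 in replicate 2, and 3 of its 4 regions were shared, the highest share among the 7 loci with ERG peaks. A region at the 5′ end, 0.3 kb inside the span, had 674 bp at 15114064 to 15114737 in replicate 1 and 602 bp at 15114094 to 15114695 in replicate 2, with midpoints 6 bp apart. These were wide peaks, with 91.6% and 92.1% of the lists narrower. The region farthest downstream was wider still, with 681 bp at 15057696 to 15058376 and 694 bp at 15057529 to 15058222, and its midpoints were 160.5 bp apart. Between these lay a narrow shared region of 283 bp at 15081943 to 15082225 in replicate 1 and 246 bp at 15081942 to 15082187 in replicate 2. These 2 regions lay 56.6 kb and 32.8 kb downstream of the 5′ end, past the 3′ end of ARHGDIB on the side of ERP27. A replicate 1 peak of 362 bp at 15157347 to 15157708, 42.3 kb upstream on the side of PDE6H, was not called in replicate 2. Among windows of the same 121 kb, 25% held at least 1 shared ERG region and 2.52% held 3 or more. This was the lowest such share among the 5 loci with a shared region. The others, with 1 each, ran from 26.8% at PLA1A to 51% at CACNA1D.

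By the distance of the 5′ end from the nearest shared ERG region, the genes fell in the order TDRD1 (0 kb), ARHGDIB (0.263 kb), CACNA1D (8.57 kb), PLAT (22.5 kb), PLA1A (79.8 kb), PLAU (90.7 kb), CXCR4 (98.4 kb), EZH2 (143 kb), VIM (217 kb) and CRISP3 (2509 kb). The difference between TDRD1 and ARHGDIB is below the 1 kb to which the spans are given, so these genes cannot be ordered. The region behind the EZH2 value lies upstream of that gene and is not the one nearest to its span. From replicate 1 alone PLA1A would join TDRD1 and ARHGDIB, at 0.414 kb. PLAT (6.85 kb) would then come before CACNA1D (8.64 kb). EZH2, at 69 kb, would come before CXCR4 (98.4 kb), and PLAU would lie at 28.3 kb.

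The share of ERG regions found in both replicates was 35% at the 10 loci (7 of 20, 95% Wilson interval 18.1% to 56.7%), beside 58.2% of all 16095 merged ERG regions. In replicate 1, 35% of the member peaks met a replicate 2 peak, beside 65.4% of the whole list. In replicate 2, 100% of the 7 member peaks met a replicate 1 peak (64.6% to 100%), beside 84.2% of the whole list. The intervals cover counting error alone and treat regions as independent, which neighbours at 1 locus may not be.

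The median width of the peaks at the loci was also lower than that of the list in replicate 1, by a difference that was not tested. The 20 member peaks of replicate 1 had a median width of 317 bp (224 to 681 bp), beside 351 bp for the list. Narrower than the list median were 12 of the 20, beside 7134 of all 14337 replicate 1 peaks. Of these 12, 3 met a replicate 2 peak (25%, 8.89% to 53.2%), beside 47.5% of all replicate 1 peaks narrower than the median. Of the 8 peaks at least as wide as the median, 4 did (50%, 21.5% to 78.5%), beside 83.2%. The member peaks in replicate 1 alone had a median width of 285 bp (n = 13) and those in both 423 bp (n = 7), and over the whole list the values were 283 bp and 403 bp. The 7 member peaks of replicate 2 had a median of 476 bp (246 to 694 bp), beside 306 bp for the list. All 7 were in both replicates, beside 84.2% of that list, and the median of its shared peaks alone was not computed. The part of peak width in the lower share at the loci was not tested.

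**Figure D3:**
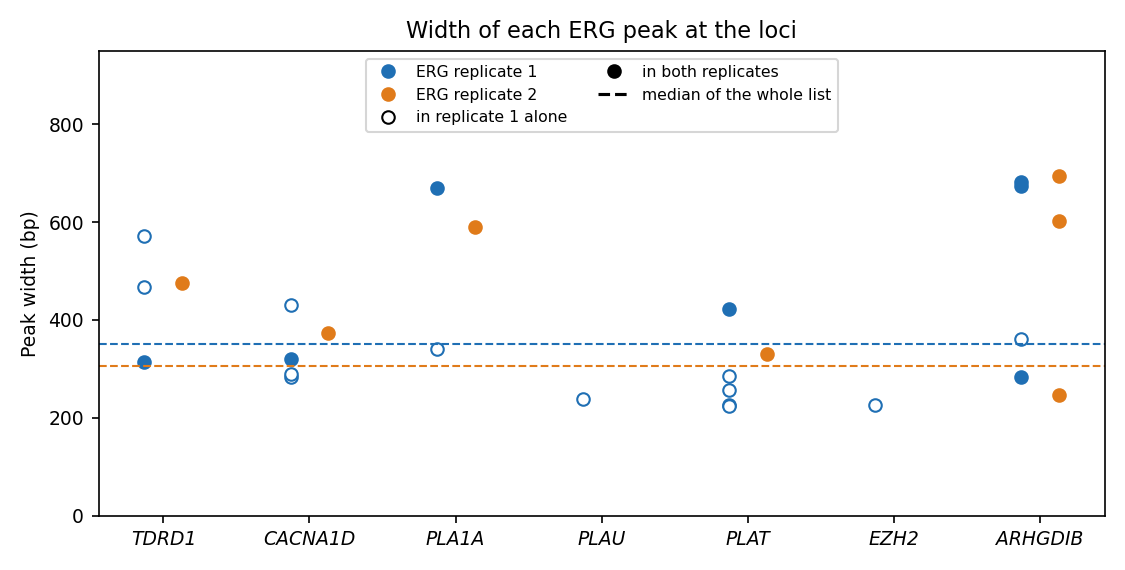
Width in bp (y axis) of each ERG peak at the 7 loci with any (x axis), for replicate 1 (blue) and replicate 2 (orange), with open circles for peaks in replicate 1 alone and dashed lines at the medians of the whole lists. Of the 13 open circles, 4 lie at or above the 351 bp line of replicate 1, and 6 of the 7 orange points lie above the 306 bp line of replicate 2.

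The replicates also differed in density. ERG replicate 1 had 12.65 peaks per Mb at the loci, beside 4.78 per Mb across the 3002 Mb that lie between the outermost peaks of each chromosome. ERG replicate 2 had 4.43 per Mb at the loci, beside 3.74. The 3002 Mb include stretches without genes, and no test was made of these differences. With the gene spans alone the densities were 12.05 and 5.16 per Mb, and with 10 kb on each side they were 14.08 and 5.12 per Mb. The gap between the replicates was smaller only from 100 kb on. There the densities were 10.85 and 6.20 per Mb, and with 1000 kb on each side 6.32 and 4.57 per Mb. Shared ERG regions numbered 3 in the gene spans, 4 with flanks of 10 kb, 7 with 50 kb and 15 with 100 kb. They numbered 29 with 200 kb, 54 with 500 kb and 81 with 1000 kb. Per length searched, the counts came to 5.16, 5.12, 4.43, 5.81, 6.33, 5.10 and 3.94 per Mb. Over the whole 3002 Mb, stretches without genes included, there were 9366 shared ERG regions. CRISP3 was the gene that had none even within 1000 kb, where 9 of the 10 genes had at least 1. Windows of that length were not counted over the genome, so the 9 of 10 has no share beside it and is not read as high. Already 51% of the 418 kb windows, which are far shorter, held a shared region.

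**Figure D4:**
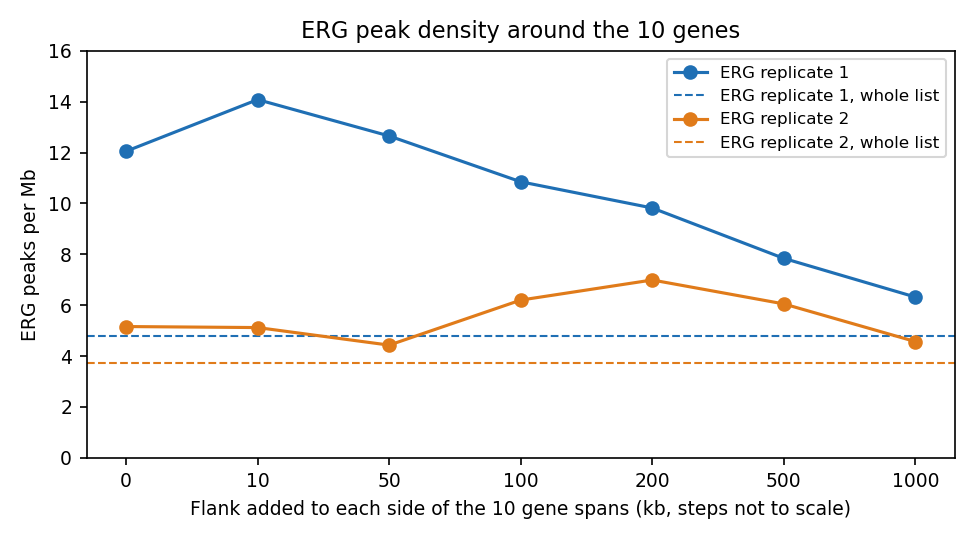
ERG peaks per Mb (y axis) over the 10 gene spans and a flank on each side (x axis, kb), for replicate 1 (blue) and replicate 2 (orange), with dashed lines at the density of each whole list. Replicate 1 falls from 14.08 per Mb at 10 kb to 6.32 at 1000 kb, and replicate 2 stays between 4.43 and 6.99. The dashed lines cover stretches without genes as well.

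Neither p53 list had a peak at the 10 loci, to be read beside the 0.889% of 100 kb windows that held one. No ERG region of the signature genes therefore met a p53 peak. The p53 peak nearest to a member lay 122 kb from PLAT in replicate 2, where replicate 1 was 1027 kb away. EZH2 followed, with 262 kb in replicate 2 and 401 kb in replicate 1. For the other 8 genes the nearest p53 peak of either replicate was at least 1514 kb away, the value for CACNA1D in replicate 2. Since the study describes larger sets of p53 peaks than those deposited, these counts hold for the deposited lists alone.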

How the data were processed

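ChIP-seq libraries were made from sonicated chromatin of untreated VCaP cells. Per the submitters' processing notes, CASAVA 1.4, Bowtie2 2.3.3.1 and MACS2 were used with hg19, and the authors called peaks per sample without pooling. A different Bowtie2 version, both builds and differing p-value thresholds appear in the published methods. The deposited lists give chromosome, start, end and name. Between 2 and 164 peaks per list end past the GRCh38 chromosome ends, so the positions are not GRCh38. Replicates were numbered per the labels, which do not say whether they were separate cultures.

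Gene spans in kb (hg19) were taken as given for these 10 genes, which were chosen, like all lists and alternatives here, with earlier results of these data known. All 10 were named. Replicate peaks with 1 bp or more in common were joined into regions, called shared when both replicates contributed. Strands came from GENCODE and gene order and promoters from RefSeq (GRCh38), without coordinates being carried over. Windows ran from the chromosome start to the last peak of any list. The merging was tested on simulated data. No hypothesis test was made, since 2 lists per factor without counts allow none. Read depth is not in the lists and was not used here. Python 3.11.15, numpy 2.4.6, scipy 1.17.1 and matplotlib 3.10.9 were used. Positions are counted from 1.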

Additional observations from a re-analysis of the deposited data

How the results depend on the processing

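With no flank, 3 genes held 3 shared of 7 ERG regions. A flank of 10 kb gave 4 shared of 11 regions, and a flank of 100 kb gave 15 shared regions at 7 genes, PLAU and CXCR4 being the additions. Genome windows were not counted for the lengths that these other flanks give. Longer windows more often held a shared region, with 22.5% at 105 kb and 51% at 418 kb. The change in genes with the flank is therefore not read as a result about them. Peaks at least as wide as the median of their list, used in place of a stricter score, gave 3 genes with 4 shared of 10 regions, and TDRD1 and CACNA1D then had none. When 1 ERG replicate was left out, all peaks of the other were counted, from 7 (without replicate 1) to 20 (without replicate 2), for merged and for shared regions, and a share in both could not be computed. Midpoints in place of overlap and a reciprocal overlap of 50% left the 5 genes, 7 shared and 20 merged regions as they were. The share of regions in both replicates ran from 35% to 51.7% across the alternatives, and p53 peaks were 0 in all of them. Of 37 alternative values over the 10 loci, 26 stayed within 1.5 times of the reported count or within the interval of the reported share. This tally does not measure stability, because several values could not move. The p53 count of 0 could only stay at 0 with shorter flanks, midpoints, wide peaks alone or a list left out. All 7 replicate 2 peaks were shared, which fixed the 5 genes and 7 shared regions without replicate 1. It also fixed the 20 merged regions without replicate 2. The interval of the share was wide (18.1% to 56.7%). No paired analysis was possible because peak lists give no model fit with a replicate term. A site not called may lie below the threshold, which the lists do not state. The study's reporting summary counts 14337 and 11237 ERG peaks at the same false discovery rate cutoff, the sizes of both ERG lists. Its p53 counts match neither p53 list.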
